A study of Mus musculus with 15 samples.

Results

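Interferon-induced genes are the genes that cells switch on when an interferon binds its receptor, and 50 of them were followed here in 15 RNA-seq libraries of mouse colonic crypts. They were chosen by name, as a list of 50 mouse symbols, and all 50 were found among the 32939 genes of the count table and had enough reads to be tested with the 17404 genes that passed the low-count filter. By textbook knowledge 18 were placed with the genes led by type II interferon (guanylate-binding proteins, immunity-related GTPases, Cxcl9, Ido1, Irf1, Irf8, Socs1 and Cd274), 24 with those led by type I interferon (Ifit, Oas, Mx and other antiviral genes), and 8 respond to either. Many of these genes respond in part to both kinds of interferon.

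The crypts came from wild-type (WT) Mus musculus, and the 3 groups have 5 libraries each. FL-shAlpl libraries came from mice on the CDAA diet with fatty liver that carried AAV-shAlpl, an adeno-associated virus with a hairpin RNA against Alpl, the gene of tissue-nonspecific alkaline phosphatase. FL-shGFP libraries came from mice with the same diet and liver state and AAV-shGFP, a hairpin against a fluorescent protein. NL-shGFP libraries came from mice on the normal diet with normal liver and AAV-shGFP. All 15 samples therefore carried an AAV, diet and liver state change together between FL-shGFP and NL-shGFP, and FL-shAlpl differs from NL-shGFP in both the diet and the hairpin. The labels give neither age nor sex nor the promoter of the AAV, and they do not say whether the 5 libraries of a group came from separate animals, so p-values measure the spread between these libraries.

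Type I interferons, which most cells can make when they sense foreign nucleic acid, signal through Ifnar1 and Ifnar2 to a complex with Stat2 and Irf9 that binds the interferon-stimulated response element (ISRE). Interferon gamma, the type II interferon, is made mainly by T and NK cells and signals through Ifngr1, Ifngr2 and the Janus kinases Jak1 and Jak2 to the gamma-activated site (GAS) in promoters. In the gut the epithelium itself answers interferon gamma with chemokines, Ido1, GTPases that attack microbes inside cells and antigen presentation genes, and it also responds to type III interferon (lambda) through Ifnlr1 and Il10rb.

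The promoters of 6 members are shown, those with the most matches to these elements among Cxcl9, Cxcl10, Irf1, Gbp2, Ifit1, Isg15, Irf7 and Bst2. Cxcl9 and Irf7 had no match to either element in the bases searched and are not shown. Each run is 300 bases of RefSeq sequence on the GRCm38.p6 build, 5′ to 3′ on the strand of the gene, with 250 bases before the start of the gene and 50 after it. Capitals mark matches on either strand to an ISRE core, searched as TTTC NN TTTC or GAAA NN GAAA, and to the GAS core TTC NNN GAA. Bst2 (ENSMUSG00000046718, chr8:71537423-71537722, minus strand) has 2 overlapping ISRE cores that begin 130 and 124 bases before the start. A GAS core at 136 bases overlaps the ISRE core at 130 bases. Isg15 (ENSMUSG00000035692, chr4:156200769-156201068, minus strand) has 3 overlapping ISRE cores at 78, 72 and 66 bases, and Ifit1 (ENSMUSG00000034459, chr19:34640639-34640938, plus strand) has 2 separate ones at 104 and 85 bases. Cxcl10 (ENSMUSG00000034855, chr5:92348840-92349139, minus strand) has 1 at 213 bases, and Gbp2 (ENSMUSG00000028270, chr3:142620413-142620712, plus strand) has 1 at 59 bases. Irf1 (ENSMUSG00000018899, chr11:53769764-53770063, plus strand) has a GAS core at 90 bases and no ISRE core in this window.
Bst2: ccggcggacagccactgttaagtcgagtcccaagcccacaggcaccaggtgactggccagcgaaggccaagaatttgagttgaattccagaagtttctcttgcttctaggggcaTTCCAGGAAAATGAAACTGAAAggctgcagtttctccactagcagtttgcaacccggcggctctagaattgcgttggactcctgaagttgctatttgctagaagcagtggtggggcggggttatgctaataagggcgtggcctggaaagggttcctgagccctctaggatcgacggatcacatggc
Isg15: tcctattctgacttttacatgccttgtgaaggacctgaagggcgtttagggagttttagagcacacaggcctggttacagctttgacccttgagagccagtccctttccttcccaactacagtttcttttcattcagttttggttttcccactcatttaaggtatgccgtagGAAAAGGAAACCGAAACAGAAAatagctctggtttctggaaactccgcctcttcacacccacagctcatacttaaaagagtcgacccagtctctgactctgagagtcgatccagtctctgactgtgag
Ifit1: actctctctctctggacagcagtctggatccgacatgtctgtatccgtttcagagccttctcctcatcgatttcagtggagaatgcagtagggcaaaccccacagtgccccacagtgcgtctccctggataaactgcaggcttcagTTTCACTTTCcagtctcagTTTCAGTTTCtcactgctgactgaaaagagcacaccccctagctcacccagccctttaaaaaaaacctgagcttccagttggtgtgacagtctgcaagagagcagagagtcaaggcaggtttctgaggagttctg
Cxcl10: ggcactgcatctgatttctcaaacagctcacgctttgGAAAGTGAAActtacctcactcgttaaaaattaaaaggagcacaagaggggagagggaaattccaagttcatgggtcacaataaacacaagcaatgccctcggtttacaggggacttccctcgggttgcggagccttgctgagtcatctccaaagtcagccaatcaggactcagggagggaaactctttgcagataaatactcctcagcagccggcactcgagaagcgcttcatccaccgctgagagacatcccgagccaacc
Gbp2: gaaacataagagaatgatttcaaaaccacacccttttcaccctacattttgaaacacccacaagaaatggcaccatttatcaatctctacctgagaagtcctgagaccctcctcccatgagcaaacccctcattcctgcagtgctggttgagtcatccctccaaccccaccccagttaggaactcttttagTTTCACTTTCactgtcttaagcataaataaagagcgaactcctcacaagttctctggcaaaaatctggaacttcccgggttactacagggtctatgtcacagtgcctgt
Irf1: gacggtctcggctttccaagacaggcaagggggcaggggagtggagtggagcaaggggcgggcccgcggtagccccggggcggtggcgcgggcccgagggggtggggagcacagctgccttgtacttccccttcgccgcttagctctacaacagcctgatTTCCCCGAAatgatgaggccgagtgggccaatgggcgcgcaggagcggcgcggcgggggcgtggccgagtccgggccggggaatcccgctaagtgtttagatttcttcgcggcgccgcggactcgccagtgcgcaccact

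RefSeq promoters were matched for 36 of the 50 members. An ISRE core was present in 24 of them, 66.7%, and in 1079 of 27025 genes of the whole RefSeq table, 3.99%. A GAS core was present in 13 of the 36, 36.1%, against 9.55% of all genes, and 10 of the 36 held both, against 0.614%. Among type II led members, 10 of 14 promoters held an ISRE core and 8 held a GAS core, and among type I led members 12 of 19 held an ISRE core and 5 a GAS core. These are matches of letters and describe the window alone.

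Depth ranged from 42071168 to 58590251 counts in FL-shAlpl libraries, from 37490405 to 51669018 in FL-shGFP libraries and from 33272941 to 41352922 in NL-shGFP libraries. Mitochondrial genes took 19.9 ± 4.03% of the counts in FL-shAlpl, 16.7 ± 3.32% in FL-shGFP and 33.2 ± 3.98% in NL-shGFP libraries (SD, n = 5 each). Epithelial markers summed to 10537 to 16354 CPM in FL-shAlpl libraries, 11562 to 17159 CPM in FL-shGFP libraries and 9411 to 11966 CPM in NL-shGFP libraries, so the crypt label was met by high epithelial expression in every library. Alpl itself was at 0 to 0.028 FPKM in FL-shAlpl, 0.0672 to 0.165 FPKM in FL-shGFP and 0 to 0.012 FPKM in NL-shGFP libraries, so the crypt data give no check of the knockdown where crypt Alpl is close to 0. Library NL-shGFP-5 stood apart from its group over the members, as did FL-shAlpl-1 to a smaller degree. Results are given with and without this pair. The pair stood out in the members themselves, so results for the members without it are not independent of that choice.

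**Figure D1:**
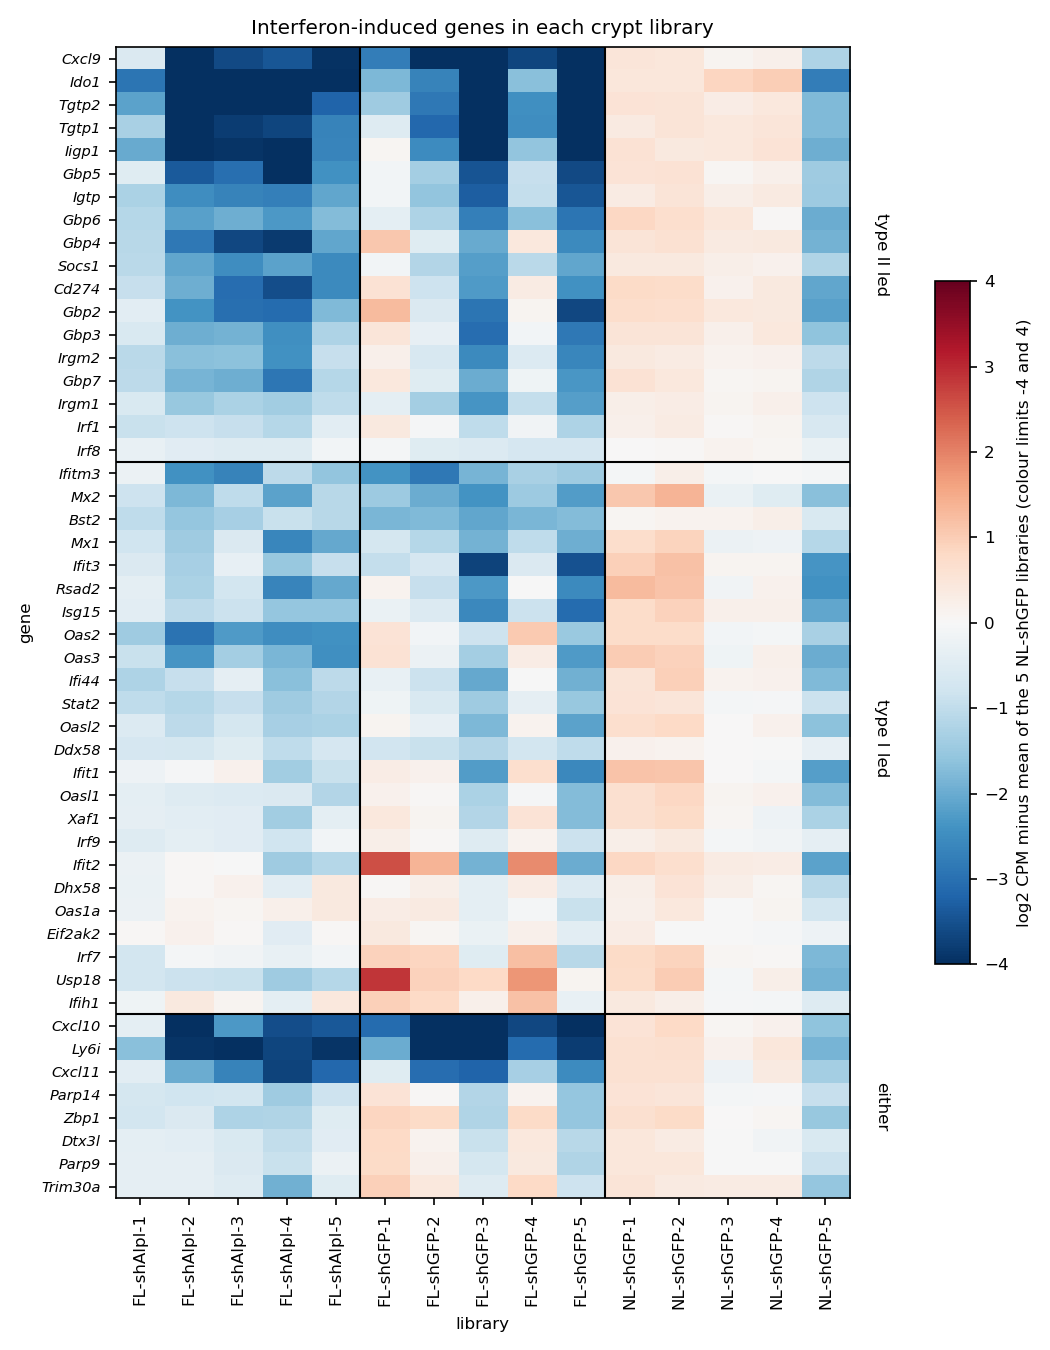
Each cell is the log2 CPM of a member (rows, in 3 classes) in a library (columns) minus the mean of the 5 NL-shGFP libraries, with blue for lower and red for higher. NL-shGFP-5 is blue for nearly all rows, FL-shGFP-3 and FL-shGFP-5 are bluer than the other FL-shGFP libraries, and the type II led rows are blue in nearly all FL-shAlpl libraries.

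In the crypts of FL-shGFP mice, 20 of the 50 interferon-induced genes fell against those of NL-shGFP mice. The deepest falls were those of the chemokines Cxcl10 and Cxcl9, the surface protein gene Ly6i, Ido1 and Tgtp2, and Bst2 and Ddx58 had the smallest adjusted p-values. Of the other members 1 rose (Usp18) and 29 did not pass an adjusted p of 0.05. That is 40% lower and 2% higher, where 46.7% of all tested genes were called in this comparison, 21.6% lower and 25.1% higher. The median log2 fold change of the members was -0.73, and that of all tested genes was -0.00. Of the type II led genes 9 of 18 fell (median -1.27), of the type I led genes 8 of 24 fell and 1 rose (median -0.60), and of the others 3 of 8 fell (median -0.15); the difference between the classes was not tested.

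Every FL-shGFP library lay below every NL-shGFP library for 6 members, Bst2, Ddx58, Cxcl10, Ly6i, Cxcl9 and Ifitm3. That is 12% of the members, and 16.2% of all tested genes were lower without overlap. Without NL-shGFP-5 and FL-shAlpl-1, 23 of 50 members fell and none rose (18.8% and 23.4% of all tested genes, 42.3% in either direction), and the median was -0.97. Leaving out 1 library at a time gave 14 to 22 members lower, and 13 of the 20 falls passed in each of those 10 fits. With no low-count filter 13 were lower. With the close NL-shGFP libraries summed in pairs (replicates 3 and 4, and 1 and 2) 11 were lower. Of the 13 falls, Gbp6 and Mx1 were lost with these sums, and 11 passed in every alternative fit. FL-shGFP crypts held more T and NK, neutrophil and surface colonocyte marker RNA and less stem cell marker RNA than NL-shGFP crypts, as given below, and the part of these in the members' levels was not tested. In bulk libraries, fewer cells of a type and less RNA per cell cannot be told apart.

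In the crypts of FL-shAlpl mice, 25 of the 50 members fell against NL-shGFP and none rose. That is 50% lower, where 17.4% of all tested genes were called, 8.12% lower and 9.31% higher. The number lower was 10 with no low-count filter and 7 with the close NL-shGFP libraries summed in pairs. The median log2 fold change was -1.29 for the members and 0.05 for all tested genes. Of the type II led genes 14 of 18 fell (median -2.16), of the type I led genes 8 of 24 (median -1.17) and of the others 3 of 8 (median -0.98), and the difference between the classes was not tested here either. Ido1, Tgtp2, Ly6i and Iigp1 fell the most, and Oas1a, Ifih1, Dhx58 and Eif2ak2 had log2 fold changes of 0.07, 0.08, -0.08 and -0.02, none of which passed.

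Every FL-shAlpl library lay below every NL-shGFP library for Bst2, Ddx58, Ido1, Tgtp2, Oas2, Stat2, Iigp1 and Ifitm3, 8 of 50 members or 16%, against 7.01% of all tested genes, and none lay above without overlap (7.54% of all tested genes). Without NL-shGFP-5 and FL-shAlpl-1, 36 of 50 members fell and none rose, with a median of -1.70. Of all tested genes 8.19% were lower and 9.45% higher. The 36 were 18 of the 18 type II led genes, 14 of the 24 type I led genes and 4 of the 8 others. NL-shGFP-5 was the lowest of its group for 49 members and FL-shAlpl-1 the highest of its group for 30. A deeper fall without this pair therefore follows in part from the choice of libraries. The number lower rested on single libraries: it was 35 without NL-shGFP-5, 10 without FL-shAlpl-2, 12 without NL-shGFP-1 or NL-shGFP-2 and 14 without FL-shAlpl-3 or FL-shAlpl-4. In each of the 10 fits that left out 1 library, 10 of the 25 falls passed. Of these, Gbp6, Igtp and Stat2 were lost with the close NL-shGFP libraries summed in pairs, and 7 passed in every alternative fit.

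Between FL-shAlpl and FL-shGFP crypts few of the members passed the test in either direction. Usp18, Oas2 and Gbp4 fell and Bst2 and Cxcl10 rose, and the other 45 did not pass. That is 6% lower and 4% higher, where 36% of all tested genes were called in this comparison (17.9% lower and 18% higher). The members varied more within groups, with a median SD of log2 CPM of 1.05 against 0.356 for all tested genes in FL-shGFP. In FL-shAlpl it was 0.555 against 0.337. A change of the same size is harder to call at a larger spread, so the shares do not compare sizes of change. The median log2 fold change of the members was -0.45, with -0.78 for type II led, -0.21 for type I led and -0.56 for the other genes, and -0.00 for all tested genes. Only Usp18, below, and Bst2, above, separated the 2 groups without overlap, 2% of the members on each side, against 9.29% of all tested genes below and 7.63% above.

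Without NL-shGFP-5 and FL-shAlpl-1, 9 members fell and 1 rose between FL-shAlpl and FL-shGFP (15.2% and 13.5% of all tested genes), and 6 of the 9 were led by type II interferon: Cd274, Gbp2, Gbp4, Gbp5, Ido1 and Socs1. The other 3 were Usp18, Oas2 and Oas3, and the gene that rose was Bst2. DESeq2 also called 9 members lower with all libraries. Leaving out 1 library at a time gave 2 to 14 members lower, with 14 without FL-shGFP-5, 7 without FL-shGFP-3 and 5 without FL-shAlpl-1. All 3 comparisons use pairs of the same 3 groups, so their fold changes are not independent of each other.

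**Figure D2:**
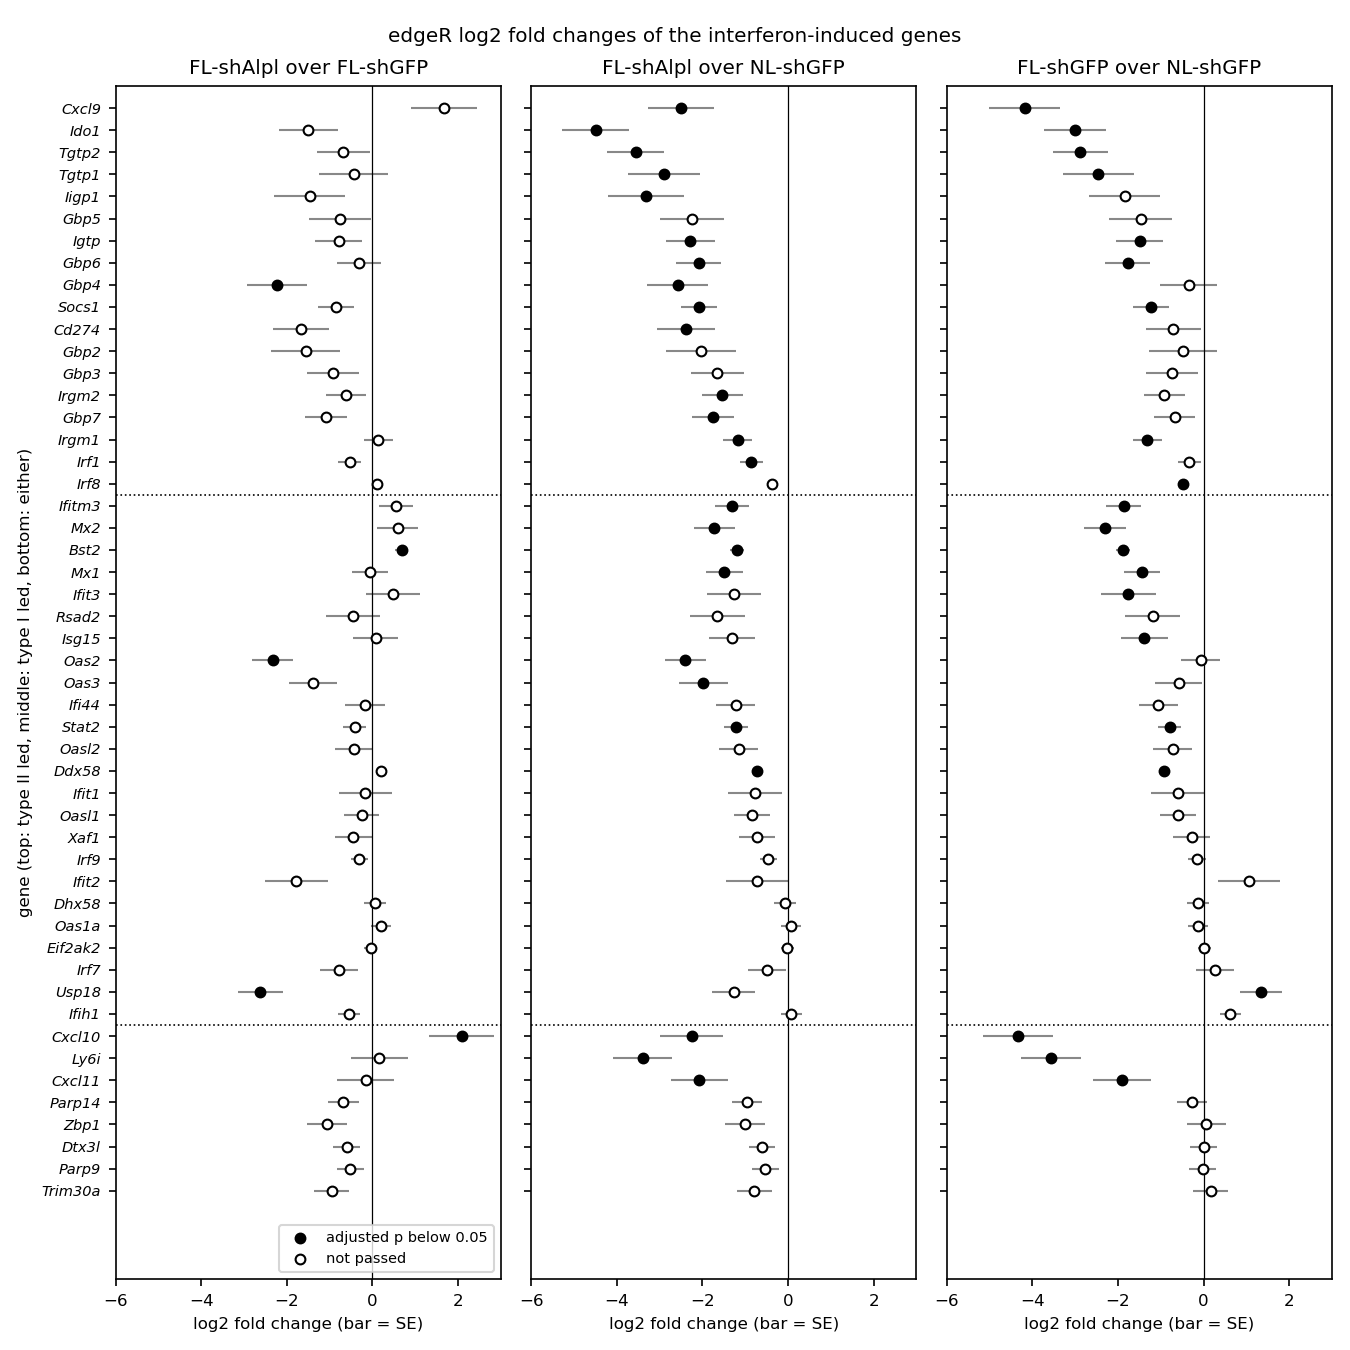
Points are log2 fold changes from edgeR with their standard errors for the 50 members (rows, in 3 classes) in 3 comparisons, filled where the adjusted p was below 0.05. Filled points lie left of 0 in both comparisons with NL-shGFP, except that of Usp18 in FL-shGFP over NL-shGFP, and few are filled in FL-shAlpl over FL-shGFP.

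The following values are CPM (read counts scaled to library size with TMM factors), listed for replicates 1 to 5 of each group in that order, with log2 fold changes ± standard error. Unless another fit is named, a call given as lost was lost when 1 library was left out. Other alternatives, such as the summed NL-shGFP pairs, took away further calls. Cxcl9, Cxcl10 and Cxcl11 are the ligands of the receptor Cxcr3, which draws T and NK cells into tissue. Cxcl9 was measured at 52.3, 3.91, 6.34, 7.31 and 5.02 CPM in FL-shAlpl libraries, 11.5, 3.51, 1.49, 6.19 and 0.960 CPM in FL-shGFP libraries and 109, 107, 85.7, 89.8 and 33.2 CPM in NL-shGFP libraries. The FL-shAlpl libraries other than FL-shAlpl-1 and all FL-shGFP libraries were far under the NL-shGFP range, in which NL-shGFP-5 was the lowest. The log2 fold change of Cxcl9 was -4.18 ± 0.83 (adjusted p = 0.00118) in FL-shGFP over NL-shGFP and -2.50 ± 0.77 (adjusted p = 0.0354) in FL-shAlpl over NL-shGFP. The FL-shAlpl call was lost without FL-shAlpl replicate 2, 3, 4 or 5 or NL-shGFP replicate 1, 2, 3 or 4 (highest adjusted p = 0.0804), and without NL-shGFP-5 and FL-shAlpl-1 the change was -4.12 ± 0.61 (adjusted p = 0.000924). In FL-shAlpl over FL-shGFP, Cxcl9 changed by 1.68 ± 0.76 (adjusted p = 0.0979), which became 0.27 ± 0.53 (adjusted p = 0.727) without that pair.

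Cxcl10 was measured at 33.1, 2.30, 8.84, 3.71 and 4.13 CPM in FL-shAlpl libraries, 5.11, 2.49, 0.443, 3.42 and 0.923 CPM in FL-shGFP libraries and 63.9, 75.4, 45.8, 49.04 and 14.2 CPM in NL-shGFP libraries. The order of the groups was the same as for Cxcl9, with FL-shGFP lowest and FL-shAlpl-1 far over the other FL-shAlpl libraries. Cxcl10 changed by -4.34 ± 0.82 (adjusted p = 0.000791) in FL-shGFP over NL-shGFP, by -2.25 ± 0.73 (adjusted p = 0.0465) in FL-shAlpl over NL-shGFP and by 2.09 ± 0.75 (adjusted p = 0.042) in FL-shAlpl over FL-shGFP. The rise over FL-shGFP was lost without FL-shAlpl replicate 1 or 3 or FL-shGFP replicate 2, 3, 4 or 5 (highest adjusted p = 0.248), and was 0.95 ± 0.55 (adjusted p = 0.202) without NL-shGFP-5 and FL-shAlpl-1. The fall against NL-shGFP in FL-shAlpl was lost without FL-shAlpl replicate 2, 3, 4 or 5 or NL-shGFP replicate 1, 2, 3 or 4 (highest adjusted p = 0.101). Cxcl11 was measured at 4.05, 1.32, 0.816, 0.375 and 0.569 CPM in FL-shAlpl libraries, 3.88, 0.608, 0.544, 2.11 and 0.904 CPM in FL-shGFP libraries and 8.25, 8.18, 4.64, 6.99 and 2.08 CPM in NL-shGFP libraries. FL-shGFP and NL-shGFP overlapped through FL-shGFP-1, FL-shGFP-4 and NL-shGFP-5. Cxcl11 changed by -1.91 ± 0.67 (adjusted p = 0.0303) in FL-shGFP over NL-shGFP, a call lost without FL-shGFP replicate 2, 3 or 5 or NL-shGFP replicate 1, 2 or 4 (highest adjusted p = 0.0661), and by -2.07 ± 0.67 (adjusted p = 0.0462) in FL-shAlpl over NL-shGFP, a call lost without FL-shAlpl replicate 2, 3, 4 or 5 or NL-shGFP replicate 1, 2, 3 or 4 (highest adjusted p = 0.1). In the GENCODE annotation at hand its exons share 1582 bases with Gm2673 on the other strand, and strand was not stated, so its reads cannot be told apart from those of that gene.

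Ido1 breaks down tryptophan and was the most abundant member in NL-shGFP crypts, at 141 ± 73.3 FPKM (SD, n = 5), a scale that allows genes to be compared. It ranked 19 of 50 by mean FPKM in FL-shAlpl and 10 of 50 in FL-shGFP crypts. Ido1 was measured at 27.1, 9.46, 4.34, 7.81 and 12.6 CPM in FL-shAlpl libraries, 59.2, 32.4, 10.7, 64.7 and 6.54 CPM in FL-shGFP libraries and 283, 284, 372, 412 and 30.3 CPM in NL-shGFP libraries. All FL-shAlpl libraries lay under all NL-shGFP libraries, while FL-shGFP-1, FL-shGFP-2 and FL-shGFP-4 exceeded NL-shGFP-5. Ido1 changed by -4.49 ± 0.78 (adjusted p = 0.00159) in FL-shAlpl over NL-shGFP and by -2.99 ± 0.73 (adjusted p = 0.00409) in FL-shGFP over NL-shGFP, and both calls held in every fit that left out 1 library. Against FL-shGFP, FL-shAlpl changed by -1.50 ± 0.69 (adjusted p = 0.103), and by -2.02 ± 0.58 (adjusted p = 0.0222) without NL-shGFP-5 and FL-shAlpl-1.

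Irf1, a transcription factor that interferon gamma induces early, was expressed in all 15 libraries. Irf1 was measured at 106, 109.8, 104, 88.7 and 146 CPM in FL-shAlpl libraries, 255, 188, 96.8, 178 and 82.8 CPM in FL-shGFP libraries and 225, 244, 201, 211 and 125 CPM in NL-shGFP libraries. Irf1 changed by -0.33 ± 0.27 (adjusted p = 0.325) in FL-shGFP over NL-shGFP and by -0.86 ± 0.27 (adjusted p = 0.0383) in FL-shAlpl over NL-shGFP. The FL-shAlpl call was lost without FL-shAlpl replicate 1, 2, 3 or 4 or NL-shGFP replicate 1, 2, 3 or 4 (highest adjusted p = 0.0879). Irf8, a factor best known from myeloid cells, fell by 0.48 on the log2 scale in FL-shGFP over NL-shGFP (adjusted p = 0.00638). Socs1, the feedback inhibitor of the Janus kinases, fell in both comparisons with NL-shGFP, with -2.07 ± 0.43 (adjusted p = 0.00439) in FL-shAlpl and -1.23 ± 0.41 (adjusted p = 0.0247) in FL-shGFP. Its FL-shGFP call was lost without FL-shGFP replicate 3 or 5 or NL-shGFP replicate 1 or 2 (highest adjusted p = 0.0534). Cd274, which encodes the checkpoint ligand PD-L1, fell in FL-shAlpl over NL-shGFP, with -2.38 ± 0.67 (adjusted p = 0.0249), a call lost without FL-shAlpl replicate 2, 3, 4 or 5 or NL-shGFP replicate 1 or 2 (highest adjusted p = 0.0603).

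**Figure D3:**
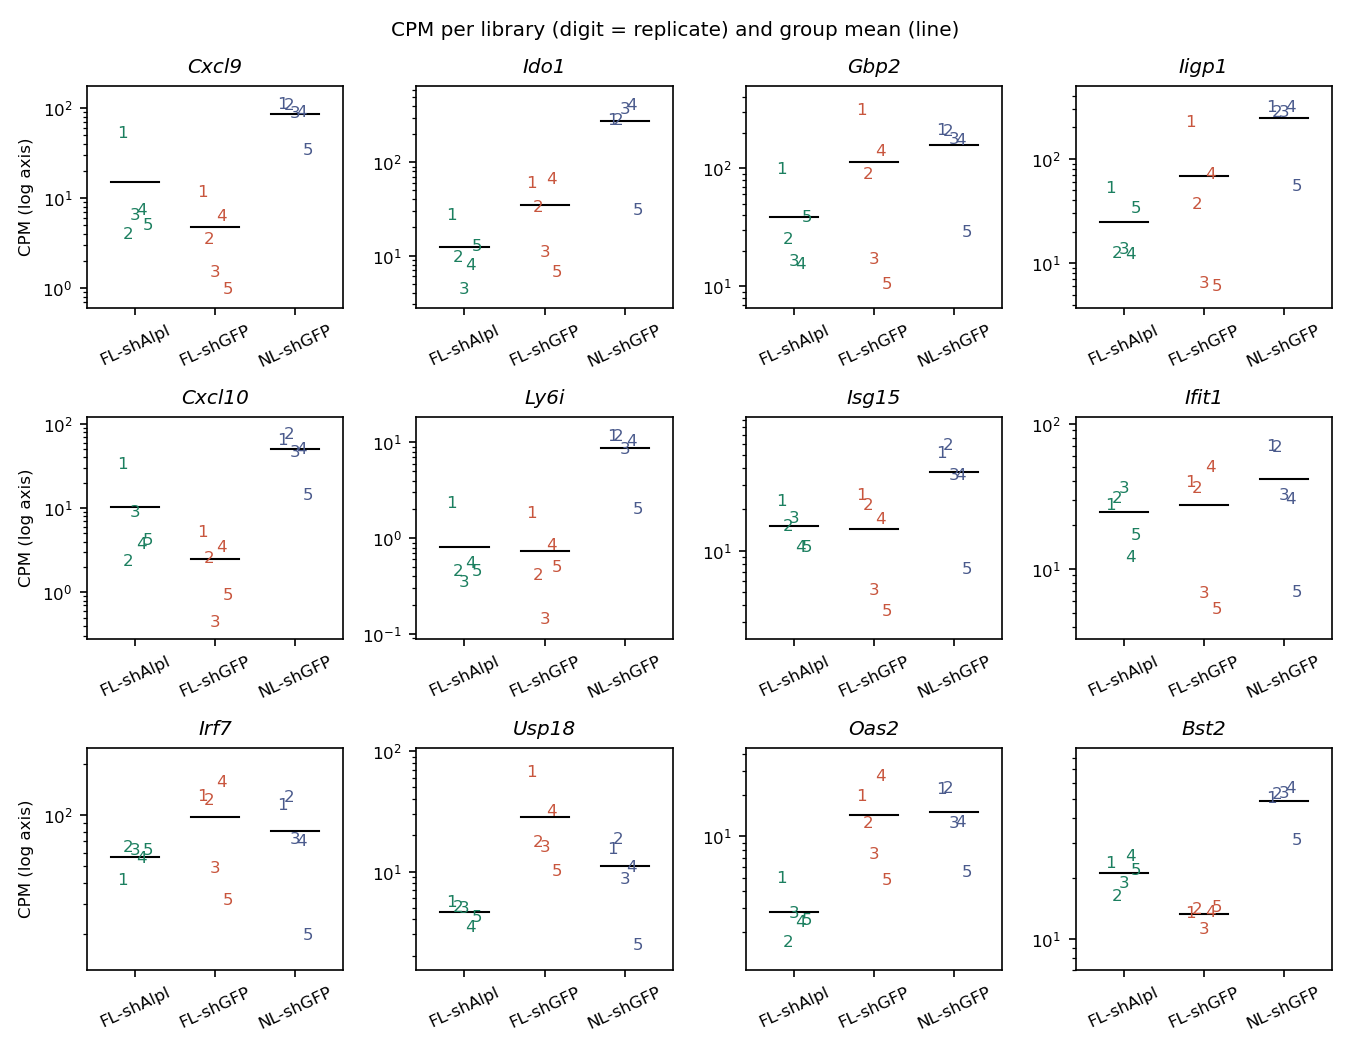
Digits mark the CPM of each replicate on a log axis for 12 members in FL-shAlpl, FL-shGFP and NL-shGFP crypts, and lines are group means. Cxcl9, Cxcl10 and Ly6i are low in both fatty liver groups, Usp18 and Oas2 are low in FL-shAlpl, and Bst2 is lowest in FL-shGFP.

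The guanylate-binding proteins coat microbes and the vacuoles that hold them. Gbp2 was measured at 97.7, 24.9, 16.1, 15.3 and 38.4 CPM in FL-shAlpl libraries, 311, 87.7, 16.97, 140.0 and 10.4 CPM in FL-shGFP libraries and 211, 205, 174, 172 and 28.8 CPM in NL-shGFP libraries. FL-shGFP libraries spanned from 10.4 to 311 CPM, so that FL-shGFP-1 exceeded all NL-shGFP libraries while FL-shGFP-3 and FL-shGFP-5 were below all of them. Gbp2 changed by -0.48 ± 0.79 (adjusted p = 0.637) in FL-shGFP over NL-shGFP, by -1.55 ± 0.80 (adjusted p = 0.142) in FL-shAlpl over FL-shGFP and by -2.04 ± 0.82 (adjusted p = 0.0969) in FL-shAlpl over NL-shGFP. Without NL-shGFP-5 and FL-shAlpl-1 the last of these was -3.01 ± 0.82 (adjusted p = 0.0232). Gbp4 was measured at 12.1, 3.57, 2.09, 1.81 and 6.21 CPM in FL-shAlpl libraries, 56.4, 18.8, 6.49, 35.3 and 4.50 CPM in FL-shGFP libraries and 38.05, 40.3, 34.01, 34.7 and 7.08 CPM in NL-shGFP libraries. FL-shGFP-2 and FL-shGFP-4 lay within the NL-shGFP range of Gbp4 and FL-shGFP-1 above it. FL-shGFP-3, FL-shGFP-5 and the FL-shAlpl libraries other than FL-shAlpl-1 lay below it.

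Gbp4 changed by -2.23 ± 0.70 (adjusted p = 0.0232) in FL-shAlpl over FL-shGFP, by -2.58 ± 0.71 (adjusted p = 0.0218) in FL-shAlpl over NL-shGFP and by -0.35 ± 0.67 (adjusted p = 0.695) in FL-shGFP over NL-shGFP. The call against FL-shGFP was lost without FL-shAlpl replicate 3 or 4 or FL-shGFP replicate 1 or 4 (highest adjusted p = 0.0806), and that against NL-shGFP without FL-shAlpl replicate 2 or 3 (highest adjusted p = 0.058). Gbp6 was measured at 3.35, 1.59, 1.86, 1.46 and 2.18 CPM in FL-shAlpl libraries, 5.60, 3.12, 1.07, 2.26 and 0.942 CPM in FL-shGFP libraries and 13.2, 11.8, 10.04, 7.60 and 1.82 CPM in NL-shGFP libraries. Gbp6, the least abundant type II led member per length, fell in both comparisons with NL-shGFP, with -2.09 ± 0.52 (adjusted p = 0.0134) in FL-shAlpl and -1.77 ± 0.52 (adjusted p = 0.012) in FL-shGFP. Both calls were lost with the close NL-shGFP libraries summed in pairs (edgeR adjusted p = 0.0736 and 0.0563). The annotation at hand has 1726 exon bases shared by Gbp6 and Gm43302, and 637 shared by Gbp7 and Gm43802 on the same strand. It also has 60 and 61 shared by Gbp4 with its copies Gbp9 and Gbp8, so reads may be split among all of these genes. Gbp7 fell in FL-shAlpl over NL-shGFP, with -1.75 ± 0.50 (adjusted p = 0.0251), and lost the call without FL-shAlpl replicate 2, 3 or 4 or NL-shGFP replicate 1 or 2 (highest adjusted p = 0.0625). Gbp3 and Gbp5 passed in no comparison with all libraries, and changed by -1.65 ± 0.61 (adjusted p = 0.0761) and -2.24 ± 0.75 (adjusted p = 0.0509) in FL-shAlpl over NL-shGFP. Gbp5, Gbp7, Gbp3 and Gbp2 lie in a cluster on chromosome 3, and Gbp4 and Gbp6 lie in another on chromosome 5.

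The immunity-related GTPases include effectors that disrupt vacuoles (Iigp1, Tgtp1 and Tgtp2) and regulators that hold the effectors in check (Irgm1, Irgm2 and Igtp). Iigp1 was measured at 51.97, 12.3, 13.7, 12.04 and 33.5 CPM in FL-shAlpl libraries, 222, 36.7, 6.45, 70.8 and 5.91 CPM in FL-shGFP libraries and 311, 275, 279.9, 307 and 54.6 CPM in NL-shGFP libraries. FL-shGFP-1 and FL-shGFP-4 lay within the NL-shGFP range, and FL-shGFP-3 and FL-shGFP-5 were the lowest of all 15. Iigp1 changed by -3.31 ± 0.88 (adjusted p = 0.0186) in FL-shAlpl over NL-shGFP, where the groups did not overlap, and by -1.85 ± 0.83 (adjusted p = 0.081) in FL-shGFP over NL-shGFP. The FL-shAlpl call was lost without FL-shAlpl replicate 2 (highest adjusted p = 0.0521). Tgtp2 was measured at 7.14, 1.78, 1.27, 1.77 and 3.39 CPM in FL-shAlpl libraries, 11.9, 4.30, 1.23, 5.71 and 1.54 CPM in FL-shGFP libraries and 46.3, 45.2, 38.6, 42.1 and 9.24 CPM in NL-shGFP libraries. All FL-shAlpl libraries were under NL-shGFP-5, the lowest NL-shGFP library.

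Tgtp2 changed by -3.56 ± 0.67 (adjusted p = 0.0026) in FL-shAlpl over NL-shGFP and by -2.88 ± 0.64 (adjusted p = 0.00249) in FL-shGFP over NL-shGFP, and both calls held in every fit that left out 1 library. Tgtp1, a near-identical copy, fell by 2.89 and 2.46 on the log2 scale in those comparisons, and how the reads were shared between the copies is uncertain. Without FL-shGFP replicate 2 or 4 (highest adjusted p = 0.0551) the Tgtp1 call in FL-shGFP was lost, and the call in FL-shAlpl was lost without FL-shAlpl replicate 2, 3, 4 or 5 or NL-shGFP replicate 1, 2, 3 or 4 (highest adjusted p = 0.0717).

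Igtp was measured at 35.1, 15.1, 13.5, 12.7 and 20.3 CPM in FL-shAlpl libraries, 78.6, 28.3, 8.59, 43.9 and 7.99 CPM in FL-shGFP libraries and 107, 122, 101, 111 and 31 CPM in NL-shGFP libraries. The FL-shGFP libraries again spread widely, from 7.99 to 78.6 CPM. Igtp changed by -2.29 ± 0.57 (adjusted p = 0.0135) in FL-shAlpl over NL-shGFP and by -1.50 ± 0.56 (adjusted p = 0.0391) in FL-shGFP over NL-shGFP, a call lost without FL-shGFP replicate 2, 3, 4 or 5 or NL-shGFP replicate 1, 2, 3 or 4 (highest adjusted p = 0.0741). Irgm1 was measured at 111, 59.5, 70.7, 64.4 and 83.6 CPM in FL-shAlpl libraries, 129.7, 66.2, 32.98, 86.7 and 37.1 CPM in FL-shGFP libraries and 201, 206, 181, 195 and 95.2 CPM in NL-shGFP libraries. The log2 fold change of Irgm1 against NL-shGFP was nearer 0 than those of the effectors. It was -1.32 ± 0.33 (adjusted p = 0.0055) in FL-shGFP over NL-shGFP and -1.18 ± 0.33 (adjusted p = 0.025) in FL-shAlpl over NL-shGFP, the second of which was lost without FL-shAlpl replicate 2, 3 or 4 or NL-shGFP replicate 1, 2 or 4 (highest adjusted p = 0.0648). Irgm2 changed by -1.54 ± 0.48 (adjusted p = 0.0375) in FL-shAlpl over NL-shGFP, lost without FL-shAlpl replicate 2, 3 or 4 or NL-shGFP replicate 1, 2, 3 or 4 (highest adjusted p = 0.0859). Igtp and Irgm2 share 162 exon bases on the same strand in the annotation at hand.

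Among the type I led genes, Bst2 gave the clearest separation. It encodes tetherin, which holds budding viruses on the cell surface. Bst2 was measured at 23.7, 16.2, 18.95, 25.8 and 21.8 CPM in FL-shAlpl libraries, 13.3, 13.9, 11.1, 13.5 and 14.3 CPM in FL-shGFP libraries and 50.1, 52.6, 52.9, 55.9 and 31 CPM in NL-shGFP libraries. The groups did not overlap in any pair, with FL-shGFP lowest, FL-shAlpl between and NL-shGFP highest. Bst2 changed by -1.87 ± 0.16 (adjusted p = 2.64e-06) in FL-shGFP over NL-shGFP, by 0.69 ± 0.16 (adjusted p = 0.00413) in FL-shAlpl over FL-shGFP and by -1.19 ± 0.16 (adjusted p = 0.000199) in FL-shAlpl over NL-shGFP. All 3 calls held in every alternative fit that was run. Ddx58, which encodes the RNA sensor RIG-I, varied little within groups. Ddx58 was measured at 19.7, 19.4, 22.3, 15.6 and 19.7 CPM in FL-shAlpl libraries, 18.6, 16.99, 14.05, 18.98 and 15.5 CPM in FL-shGFP libraries and 35.6, 35.1, 31.8, 31.1 and 25.3 CPM in NL-shGFP libraries. Both fatty liver groups lay below NL-shGFP without overlap. Ddx58 changed by -0.92 ± 0.12 (adjusted p = 6.06e-05) in FL-shGFP over NL-shGFP, by -0.72 ± 0.12 (adjusted p = 0.0013) in FL-shAlpl over NL-shGFP and by 0.20 ± 0.12 (adjusted p = 0.209) in FL-shAlpl over FL-shGFP.

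The other RNA sensors passed in no comparison with all libraries. Ifih1, which encodes MDA5, changed by 0.63 ± 0.25 (adjusted p = 0.0524) in FL-shGFP over NL-shGFP. Dhx58 and the RNA-activated kinase gene Eif2ak2 changed by -0.13 ± 0.26 (adjusted p = 0.7) and 0.02 ± 0.16 (adjusted p = 0.924) there. Ifitm3, which blocks the fusion of viruses with cell membranes, had the highest median FPKM of the members over all libraries, 37.8. It changed by -1.87 ± 0.40 (adjusted p = 0.00201) in FL-shGFP over NL-shGFP and by -1.32 ± 0.40 (adjusted p = 0.0324) in FL-shAlpl over NL-shGFP, and did not overlap NL-shGFP in either. The FL-shAlpl call was lost without FL-shAlpl replicate 2, 3 or 5 or NL-shGFP replicate 1, 2, 3 or 4 (highest adjusted p = 0.0735).

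Usp18 removes the ubiquitin-like protein Isg15 from its targets and shuts off the type I receptor. Usp18 was measured at 5.54, 5.06, 4.91, 3.39 and 4.15 CPM in FL-shAlpl libraries, 66.4, 17.6, 15.9, 31.6 and 10 CPM in FL-shGFP libraries and 15.4, 18.4, 8.67, 10.8 and 2.42 CPM in NL-shGFP libraries. It was the only member that rose in FL-shGFP over NL-shGFP, with FL-shGFP-1 and FL-shGFP-4 the highest, and the 2 groups overlapped. FL-shAlpl libraries were below every FL-shGFP library. Usp18 changed by 1.34 ± 0.50 (adjusted p = 0.0388) in FL-shGFP over NL-shGFP, by -2.61 ± 0.52 (adjusted p = 0.00218) in FL-shAlpl over FL-shGFP and by -1.27 ± 0.51 (adjusted p = 0.0949) in FL-shAlpl over NL-shGFP. The rise was lost without FL-shGFP replicate 1 or 4 or NL-shGFP replicate 3, 4 or 5 (highest adjusted p = 0.181) and was 1.08 ± 0.46 (adjusted p = 0.0721) without NL-shGFP-5 and FL-shAlpl-1, while the fall against FL-shGFP passed in every alternative fit. Usp18 shares 124 exon bases with Gm44148 on the other strand in the annotation at hand.

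Isg15 itself moved otherwise. Isg15 was measured at 22.7, 14.98, 17.1, 10.5 and 10.6 CPM in FL-shAlpl libraries, 25.4, 21.2, 5.14, 16.99 and 3.62 CPM in FL-shGFP libraries and 51.4, 58.8, 35.3, 35.2 and 7.31 CPM in NL-shGFP libraries. NL-shGFP-5 lay below all FL-shAlpl libraries and within the FL-shGFP range, and the other 4 NL-shGFP libraries lay above both. Isg15 changed by -1.38 ± 0.54 (adjusted p = 0.0469) in FL-shGFP over NL-shGFP, a call lost without FL-shGFP replicate 3, 4 or 5 or NL-shGFP replicate 1, 2, 3 or 4 (highest adjusted p = 0.108). In FL-shAlpl over NL-shGFP it changed by -1.31 ± 0.54 (adjusted p = 0.106), and by -1.76 ± 0.50 (adjusted p = 0.0287) without NL-shGFP-5 and FL-shAlpl-1. Between FL-shAlpl and FL-shGFP its change was 0.07 ± 0.53 (adjusted p = 0.928).

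The Ifit proteins bind foreign RNA. Ifit1 was measured at 27.4, 30.4, 35.5, 11.97 and 16.9 CPM in FL-shAlpl libraries, 39.3, 35.8, 6.75, 50.2 and 5.24 CPM in FL-shGFP libraries and 69.3, 68.9, 31.8, 30.2 and 6.88 CPM in NL-shGFP libraries. FL-shGFP-3, FL-shGFP-5 and NL-shGFP-5 were the lowest of all 15 libraries, and no comparison passed, with -0.60 ± 0.63 (adjusted p = 0.452) in FL-shGFP over NL-shGFP and -0.76 ± 0.63 (adjusted p = 0.444) in FL-shAlpl over NL-shGFP. Ifit3 was measured at 6.97, 4.05, 8.23, 3.56 and 5.44 CPM in FL-shAlpl libraries, 5.28, 6.45, 0.746, 6.87 and 0.885 CPM in FL-shGFP libraries and 20.2, 23.5, 11.1, 11.2 and 1.96 CPM in NL-shGFP libraries. Ifit3 changed by -1.76 ± 0.64 (adjusted p = 0.0356) in FL-shGFP over NL-shGFP, a call lost without FL-shGFP replicate 1, 3 or 5 or NL-shGFP replicate 1 or 2 (highest adjusted p = 0.0883), and by -1.27 ± 0.63 (adjusted p = 0.182) in FL-shAlpl over NL-shGFP. Its neighbour Ifit2 spread from 8.83 to 210.1 CPM in FL-shGFP libraries, and from 7.93 to 62.99 CPM in NL-shGFP libraries. Ifit2, Ifit3 and Ifit1 lie in a cluster on chromosome 19, and their log2 fold changes in FL-shGFP over NL-shGFP were 1.06, -1.76 and -0.60.

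The Oas enzymes make the short adenylate chains that activate RNase L. Oas2 was measured at 4.97, 1.70, 2.73, 2.35 and 2.45 CPM in FL-shAlpl libraries, 19.6, 12.5, 7.44, 27.5 and 4.75 CPM in FL-shGFP libraries and 22.1, 22.4, 12.4, 12.7 and 5.46 CPM in NL-shGFP libraries. FL-shAlpl libraries other than FL-shAlpl-1 were below all others. Oas2 changed by -2.33 ± 0.48 (adjusted p = 0.00262) in FL-shAlpl over FL-shGFP, by -2.40 ± 0.48 (adjusted p = 0.00405) in FL-shAlpl over NL-shGFP and by -0.07 ± 0.45 (adjusted p = 0.916) in FL-shGFP over NL-shGFP, and both FL-shAlpl calls passed in every alternative fit. Oas1a was measured at 41.3, 54.02, 51.8, 56.4 and 64.1 CPM in FL-shAlpl libraries, 59.8, 62.9, 37.8, 46.03 and 26.4 CPM in FL-shGFP libraries and 56.8, 66.1, 48.9, 52.9 and 29.3 CPM in NL-shGFP libraries. Oas1a, which lies in a cluster with Oas2 and Oas3 on chromosome 5, passed in no comparison, with 0.20 ± 0.23 (adjusted p = 0.518) in FL-shAlpl over FL-shGFP and 0.07 ± 0.23 (adjusted p = 0.864) in FL-shAlpl over NL-shGFP. Oas3 changed by -1.98 ± 0.56 (adjusted p = 0.0258) in FL-shAlpl over NL-shGFP, a call lost without FL-shAlpl replicate 2, 4 or 5 or NL-shGFP replicate 1 or 2 (highest adjusted p = 0.0671). Oasl2 is a relative with ubiquitin-like domains. Oasl2 was measured at 49.4, 35.5, 44.6, 29.2 and 30.4 CPM in FL-shAlpl libraries, 79.1, 57.6, 21.2, 80.8 and 16.5 CPM in FL-shGFP libraries and 115, 126, 73.3, 82.6 and 23.6 CPM in NL-shGFP libraries. NL-shGFP-5 again fell within the FL-shGFP range, and Oasl2 passed in no comparison, with -0.72 ± 0.45 (adjusted p = 0.198) in FL-shGFP over NL-shGFP and -1.15 ± 0.45 (adjusted p = 0.0925) in FL-shAlpl over NL-shGFP.

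Mx2, a dynamin-like GTPase and the least abundant member per length (0.247 FPKM, median of 15), fell in both fatty liver groups. Mx2 was measured at 1.45, 0.727, 1.27, 0.562 and 1.19 CPM in FL-shAlpl libraries, 0.927, 0.629, 0.464, 0.922 and 0.527 CPM in FL-shGFP libraries and 5.58, 6.76, 2.19, 1.85 and 0.796 CPM in NL-shGFP libraries. NL-shGFP-1 and NL-shGFP-2 were the highest, and NL-shGFP-5 fell within the other groups. Mx2 changed by -2.31 ± 0.49 (adjusted p = 0.00164) in FL-shGFP over NL-shGFP and by -1.72 ± 0.48 (adjusted p = 0.0211) in FL-shAlpl over NL-shGFP, the second lost without FL-shAlpl replicate 2 or NL-shGFP replicate 1 or 2 (highest adjusted p = 0.071). Its paralogue Mx1 changed by -1.44 ± 0.43 (adjusted p = 0.0136) and -1.49 ± 0.43 (adjusted p = 0.0272) in the same comparisons, and the second was lost without FL-shAlpl replicate 2, 4 or 5 or NL-shGFP replicate 1 or 2 (highest adjusted p = 0.0743). Rsad2 was measured at 10.9, 5.89, 8.59, 2.27 and 3.46 CPM in FL-shAlpl libraries, 15.9, 7.56, 2.90, 14.1 and 2.41 CPM in FL-shGFP libraries and 34.4, 31.5, 13.05, 16.1 and 2.67 CPM in NL-shGFP libraries. Rsad2 encodes viperin, an enzyme that makes a nucleotide which stops viral RNA synthesis, and it passed in no comparison, with -1.19 ± 0.64 (adjusted p = 0.138) in FL-shGFP over NL-shGFP and -1.65 ± 0.65 (adjusted p = 0.0935) in FL-shAlpl over NL-shGFP.

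Irf7 is the factor that amplifies type I interferon, and Stat2 is the partner of Irf9 in the ISRE-binding complex. Their fold changes were not tested against each other. Irf7 was measured at 41.1, 64.4, 62, 55.4 and 62.2 CPM in FL-shAlpl libraries, 129, 122, 48.5, 156 and 31.6 CPM in FL-shGFP libraries and 115, 126, 71.8, 70.4 and 19.5 CPM in NL-shGFP libraries. FL-shGFP-1 and FL-shGFP-4 were above all NL-shGFP libraries and FL-shGFP-2 was below NL-shGFP-2 alone, and no comparison passed, with 0.27 ± 0.44 (adjusted p = 0.636) in FL-shGFP over NL-shGFP and -0.77 ± 0.45 (adjusted p = 0.189) in FL-shAlpl over FL-shGFP. Stat2 changed by -0.79 ± 0.27 (adjusted p = 0.0284) in FL-shGFP over NL-shGFP, lost without FL-shGFP replicate 3 or 5 or NL-shGFP replicate 1 or 2 (highest adjusted p = 0.074), and by -1.21 ± 0.28 (adjusted p = 0.00847) in FL-shAlpl over NL-shGFP, without overlap of the groups. Irf9 changed by -0.15 ± 0.20 (adjusted p = 0.558) and -0.46 ± 0.20 (adjusted p = 0.13) there.

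Of the genes that respond to either interferon, Ly6i, which encodes a small surface protein of the Ly6 family, was among the deepest falls. Ly6i was measured at 2.30, 0.450, 0.342, 0.541 and 0.445 CPM in FL-shAlpl libraries, 1.83, 0.406, 0.141, 0.833 and 0.490 CPM in FL-shGFP libraries and 11.4, 11.5, 8.40, 10.1 and 1.99 CPM in NL-shGFP libraries. All FL-shGFP libraries were below NL-shGFP-5, and FL-shAlpl-1 just exceeded it. Ly6i changed by -3.56 ± 0.70 (adjusted p = 0.00106) in FL-shGFP over NL-shGFP and by -3.40 ± 0.69 (adjusted p = 0.00417) in FL-shAlpl over NL-shGFP, and both calls passed in every alternative fit. Zbp1 was measured at 50.2, 55.6, 35.3, 36.2 and 59.4 CPM in FL-shAlpl libraries, 150.2, 141, 36.02, 140.5 and 28.6 CPM in FL-shGFP libraries and 131, 142, 84.2, 87.8 and 29.4 CPM in NL-shGFP libraries. Zbp1 senses Z-form nucleic acid and can start necroptosis. FL-shGFP-1, FL-shGFP-2 and FL-shGFP-4 were at about the level of NL-shGFP-1 and NL-shGFP-2, and no comparison passed, with 0.06 ± 0.46 (adjusted p = 0.921) in FL-shGFP over NL-shGFP and -1.07 ± 0.47 (adjusted p = 0.0846) in FL-shAlpl over FL-shGFP. Parp9 and Dtx3l, partners in 1 ubiquitin ligase whose exons share 458 bases on opposite strands, and Parp14 near them on chromosome 16, passed in no comparison with all libraries, nor did Trim30a.

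Ifi44, Oasl1 and Xaf1 also passed in no comparison with all libraries. Their log2 fold changes in FL-shAlpl over NL-shGFP were, in that order, -1.23, -0.84 and -0.72.

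The members varied more within groups than other genes did. The median SD of log2 CPM within a group was 0.555 for the members and 0.337 for all tested genes in FL-shAlpl, 1.05 and 0.356 in FL-shGFP, and 0.852 and 0.222 in NL-shGFP libraries. In FL-shGFP it was 1.42 for type II led and 0.906 for type I led genes. The spread was shared between the members: FL-shGFP-1 was the highest FL-shGFP library for 36 of the 50 members and FL-shGFP-5 the lowest for 36. NL-shGFP-5 was the lowest NL-shGFP library for 49 of the 50. FL-shAlpl-1 was the highest FL-shAlpl library for 30 members, 15 of them type II led, and FL-shAlpl-4 the lowest for 33.

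Set against the NL-shGFP mean, the median log2 difference of the 18 type II led genes was -1.05, -2.28, -2.83, -2.98 and -2.08 in FL-shAlpl libraries, -0.09, -1.19, -2.84, -0.93 and -2.89 in FL-shGFP libraries and 0.49, 0.48, 0.21, 0.29 and -1.54 in NL-shGFP libraries. The same medians over the 24 type I led genes were -0.54, -0.88, -0.52, -1.40 and -1.12 in FL-shAlpl, 0.16, -0.16, -1.38, 0.07 and -1.73 in FL-shGFP and 0.65, 0.77, 0.00, 0.07 and -1.46 in NL-shGFP libraries. The type II led median lay under the type I led median in all 5 FL-shAlpl and all 5 FL-shGFP libraries. In NL-shGFP libraries the order was mixed: it held in NL-shGFP-1, NL-shGFP-2 and NL-shGFP-5 and was reversed in NL-shGFP-3 and NL-shGFP-4. These libraries are set against their own mean, so they cannot show whether the order is particular to the fatty liver groups. In FL-shGFP-1, FL-shGFP-2 and FL-shGFP-4 the type I led median was close to 0, with members on either side of it such as Usp18 above and Bst2 and Ifitm3 below, and in FL-shGFP-3 and FL-shGFP-5 both medians were low. No label separates these libraries.

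**Figure D4:**
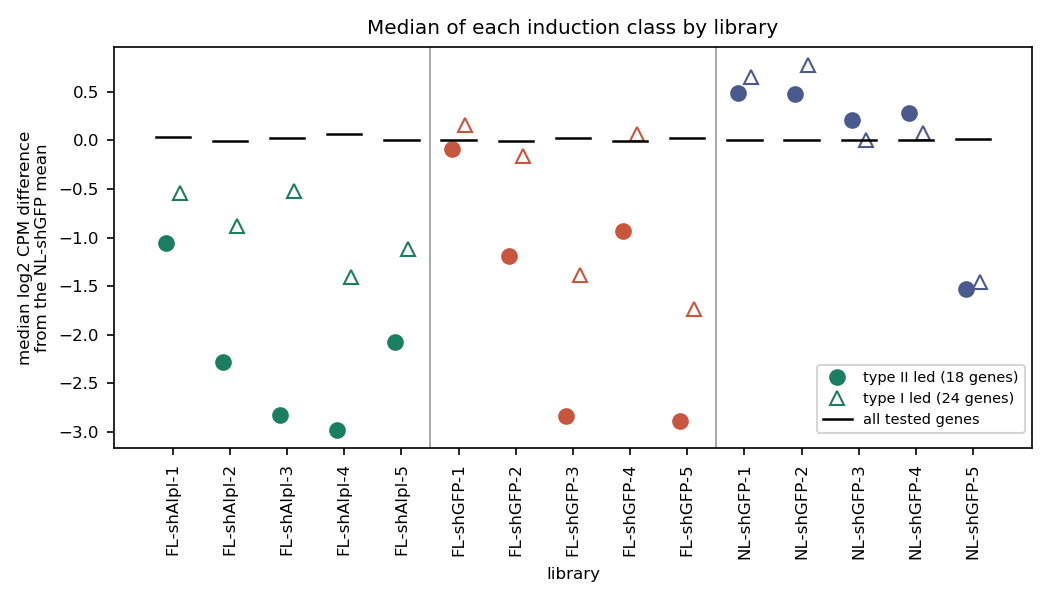
For each library (columns, in 3 groups), circles are the median log2 CPM difference from the NL-shGFP mean of the 18 type II led genes, triangles that of the 24 type I led genes and black lines that of all tested genes. Circles lie below triangles in every fatty liver library and in NL-shGFP-1, NL-shGFP-2 and NL-shGFP-5. NL-shGFP-5 is low for both, at -1.54 and -1.46.

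Of 6 interferon genes looked up (Ifng, Ifnb1, Ifnl2, Ifnl3, Ifnk and Ifne), 4 were matched to a row of the table, and of these Ifng alone had enough reads to be tested. The Ifna genes were not looked up. Its counts were 15, 2, 1, 0 and 1 in FL-shAlpl libraries, 13, 10, 2, 7 and 5 in FL-shGFP libraries and 96, 109, 58, 86 and 9 in NL-shGFP libraries. NL-shGFP-5 was within the fatty liver range, and the other NL-shGFP libraries were well above it. Ifng changed by -3.60 ± 0.76 (adjusted p = 0.00158) in FL-shGFP over NL-shGFP, by -4.78 ± 0.82 (adjusted p = 0.00136) in FL-shAlpl over NL-shGFP and by -1.18 ± 0.84 (adjusted p = 0.289) in FL-shAlpl over FL-shGFP, where it was -2.86 ± 0.65 (adjusted p = 0.00639) without NL-shGFP-5 and FL-shAlpl-1. Ifnb1 had 6, 0, 0, 0 and 0 counts in FL-shAlpl, 0, 0, 0, 0 and 0 in FL-shGFP and 6, 12, 4, 0 and 0 in NL-shGFP libraries, Ifnl2 had 2 counts in all, in an NL-shGFP library, and Ifnk summed to 4 counts in FL-shAlpl, 6 in FL-shGFP and 0 in NL-shGFP libraries. Ifnb1, Ifnl2 and Ifnk were thus at or near 0 in most libraries.

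All 6 interferon receptor chains rose in FL-shGFP over NL-shGFP, 5 of them without overlap, led by Ifngr1. Of all tested genes 25.1% were called higher in this comparison, and 18.1% were higher without overlap. Ifngr1 was measured at 161, 248, 178, 153 and 205 CPM in FL-shAlpl libraries, 444, 401, 319, 504 and 271 CPM in FL-shGFP libraries and 146, 158, 125, 130.2 and 105 CPM in NL-shGFP libraries. Ifngr1 changed by 1.55 ± 0.18 (adjusted p = 2.34e-05) in FL-shGFP over NL-shGFP and by -1.03 ± 0.18 (adjusted p = 0.000753) in FL-shAlpl over FL-shGFP. Ifnlr1, the lambda receptor chain typical of epithelium, changed by 1.07 ± 0.15 (adjusted p = 6.94e-05) and -0.63 ± 0.14 (adjusted p = 0.00442) in these comparisons. In FL-shAlpl over FL-shGFP 5 of the 6 fell (3 without NL-shGFP-5 and FL-shAlpl-1), and in FL-shAlpl over NL-shGFP 2 rose, Ifngr2 and Ifnlr1.

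Among 9 signalling genes, 5 rose and 2 fell in FL-shGFP over NL-shGFP. Jak1 and Jak2, the kinases of the interferon gamma receptor, rose with Irf2, Stat3 and Socs3, and Tyk2, a kinase of the type I receptor, fell with Irf3. Socs3 was measured at 83.7, 52.9, 33.6, 37.4 and 45.5 CPM in FL-shAlpl libraries, 173, 154, 163, 170.2 and 95.9 CPM in FL-shGFP libraries and 70.1, 71.4, 57, 64.7 and 59.7 CPM in NL-shGFP libraries. All FL-shGFP libraries were above all others. Socs3, a target of Stat3, changed by 1.23 ± 0.22 (adjusted p = 0.000479) in FL-shGFP over NL-shGFP and by -1.58 ± 0.22 (adjusted p = 0.000206) in FL-shAlpl over FL-shGFP. In that last comparison 5 of the 9 fell and none rose. In FL-shAlpl over NL-shGFP none of the 9 passed in edgeR, and 3 had an unadjusted p below 0.05.

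**Figure D5:**
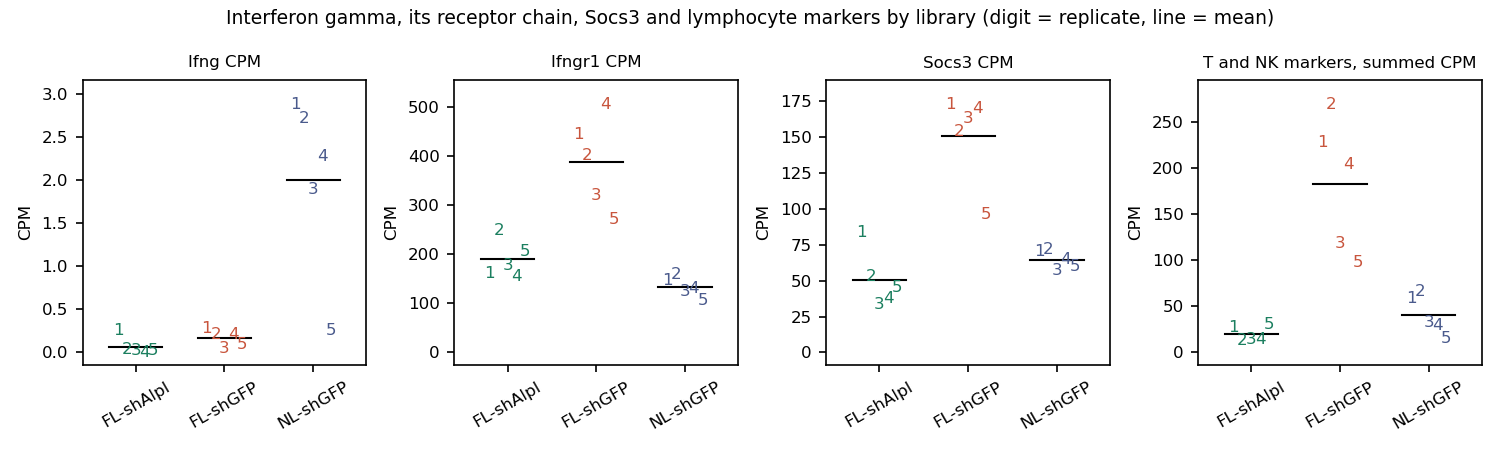
Digits mark each replicate and lines the group means, in CPM, of Ifng, Ifngr1, Socs3 and the sum of 16 T and NK cell markers in FL-shAlpl, FL-shGFP and NL-shGFP crypts. Ifng is highest in NL-shGFP libraries other than NL-shGFP-5, and Ifngr1, Socs3 and the T and NK markers are highest in FL-shGFP libraries.

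Of 10 nucleic acid sensing genes, Cgas, the sensor of cytosolic DNA, changed by -1.59 ± 0.30 (adjusted p = 0.000668) in FL-shGFP over NL-shGFP and by 1.22 ± 0.29 (adjusted p = 0.00591) in FL-shAlpl over FL-shGFP, and Mavs, the adaptor of RIG-I and MDA5, by -0.51 ± 0.13 (adjusted p = 0.00606) and 0.43 ± 0.13 (adjusted p = 0.0198). None of the 10 passed in FL-shAlpl over NL-shGFP. Of 8 genes upstream of Ifng, the epithelial cytokine gene Il18 rose in both fatty liver groups, by 2.59 ± 0.34 (adjusted p = 0.000245) in FL-shAlpl and 2.60 ± 0.34 (adjusted p = 6.54e-05) in FL-shGFP over NL-shGFP. Il12a and Il27, cytokine subunits that promote interferon gamma production by T and NK cells, fell in both, with -3.30 ± 0.71 (adjusted p = 0.00529) in FL-shAlpl and -2.61 ± 0.68 (adjusted p = 0.00614) in FL-shGFP for Il12a. These falls rest on few reads. Il12a counts were 25, 2, 6, 0 and 2 in FL-shAlpl, 10, 8, 11, 12 and 6 in FL-shGFP and 74, 64, 32, 44 and 16 in NL-shGFP libraries. For both genes FL-shAlpl-1 had more counts than NL-shGFP-5, 25 against 16 for Il12a and 20 against 5 for Il27. Il18r1, the receptor chain for Il18, changed by -3.22 ± 0.37 (adjusted p = 6.90e-05) in FL-shAlpl over FL-shGFP and by 2.004 ± 0.35 (adjusted p = 0.000417) in FL-shGFP over NL-shGFP.

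Of 6 antigen presentation genes that interferon gamma induces, 5 fell in FL-shAlpl over NL-shGFP, all but B2m. Nlrc5, the activator of class I genes, changed by -2.15 ± 0.40 (adjusted p = 0.00275) there and by -1.64 ± 0.40 (adjusted p = 0.00651) against FL-shGFP, and Tap1, the peptide transporter, by -1.66 ± 0.39 (adjusted p = 0.0093) in FL-shAlpl over NL-shGFP. In FL-shGFP over NL-shGFP the proteasome subunit gene Psmb9 was the only one that fell, with -1.07 ± 0.33 (adjusted p = 0.0151). Over the 40 pathway genes tested, 2 rose and 18 fell in FL-shAlpl over FL-shGFP, 3 rose and 9 fell in FL-shAlpl over NL-shGFP, and 14 rose and 9 fell in FL-shGFP over NL-shGFP, to be read against the shares of all tested genes given above.

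Markers of other cells moved with the groups. The 16 T and NK cell markers summed to 13.3 to 29.9 CPM in FL-shAlpl libraries, 97.8 to 269 CPM in FL-shGFP libraries and 15.2 to 66.7 CPM in NL-shGFP libraries. Of 15 tested, 14 rose in FL-shGFP over NL-shGFP, 15 fell in FL-shAlpl over FL-shGFP, and 5 fell and 1 rose in FL-shAlpl over NL-shGFP. Ncr1 was at 0 in some libraries of each group and no other marker of this list was at 0 in any. Ifng, a product of these cells, was thus low in FL-shGFP libraries in which most of their other markers were high. Gzmb was an exception, with 646, 557, 411, 342 and 367 counts in FL-shGFP and 475, 701, 178, 230 and 86 in NL-shGFP libraries, which overlap. The 13 macrophage and dendritic cell markers summed to 67.05 to 345 CPM in FL-shAlpl libraries, 188 to 646 CPM in FL-shGFP libraries and 103 to 266 CPM in NL-shGFP libraries, and 5 rose in FL-shGFP over NL-shGFP, 4 fell in FL-shAlpl over FL-shGFP and none passed in FL-shAlpl over NL-shGFP. Clec9a, Siglech and Xcr1 were each at 0 in a library or more.

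The 6 neutrophil markers summed to 95.9 to 246 CPM in FL-shAlpl libraries, 806 to 1374 CPM in FL-shGFP libraries and 50.1 to 211 CPM in NL-shGFP libraries, with Mpo at 0 in all FL-shAlpl libraries, and of 5 tested 3 rose in FL-shGFP over NL-shGFP and 4 fell in FL-shAlpl over FL-shGFP. The 7 B and plasma cell markers summed to 15.97 to 131 CPM in FL-shAlpl libraries, 101 to 379 CPM in FL-shGFP libraries and 6.23 to 21.9 CPM in NL-shGFP libraries, and the 8 markers of stroma and vessels to 21.6 to 291 CPM in FL-shAlpl libraries, 58.5 to 346 CPM in FL-shGFP libraries and 11.7 to 57.3 CPM in NL-shGFP libraries. In FL-shGFP over NL-shGFP 3 of 6 tested B and plasma cell markers and 5 of 8 stromal markers rose, and in FL-shAlpl over FL-shGFP 1 and 2 of them fell. Within the epithelium, 7 surface colonocyte markers summed to 1309 to 3366 CPM in FL-shAlpl libraries, 3535 to 9687 CPM in FL-shGFP libraries and 746 to 2091 CPM in NL-shGFP libraries, and 6 stem cell markers to 54.2 to 164 CPM in FL-shAlpl libraries, 35.5 to 69.2 CPM in FL-shGFP libraries and 151 to 213 CPM in NL-shGFP libraries, with Lgr5 and Ascl2 at 0 in some FL-shGFP libraries. In FL-shGFP over NL-shGFP 6 of the 7 surface markers rose and 5 of the 6 stem cell markers fell, and in FL-shAlpl over FL-shGFP 5 of the 7 surface markers fell and 4 of the 6 stem cell markers rose. FL-shGFP-3 and FL-shGFP-5, in which the members were lowest, also had the lowest T and NK sums of their group, 118 and 97.8 CPM, and the lowest surface colonocyte sums, 5913 and 3535 CPM. NL-shGFP-5 likewise had the lowest sums of both lists in its group. FL-shAlpl libraries did not follow this order. FL-shAlpl-1, the highest of its group for 30 members, had its lowest surface colonocyte sum, 1309 CPM. FL-shAlpl-4, the lowest for 33 members, had the lowest sum of neither list. The neutrophil sum was highest in FL-shGFP-3, at 1374 CPM, and lowest in FL-shGFP-5, at 806 CPM. The part of these cell markers and of the mitochondrial share in the members' levels was not tested.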

How the data were processed

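Colonic crypt RNA was sequenced after mRNA enrichment, per the labels' protocols, and HISAT2 is named in the submitters' processing notes; no source at hand names the counting tool, strand setting, genome build or annotation. The authors deposited read counts per gene (whole numbers, 32939 genes) and FPKM values, and the deposited FPKM equal count over length and column total. Counts of 1 to 12 were even in 72.4% to 77.2% of cases, so most fragments appear to have been counted as a pair of reads. Gene IDs were matched to symbols for 32241 genes, and 698 were left without one. The 15535 genes with few reads stayed untested.

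The counts were tested with edgeR 4.0.16 in R 4.3.3 (TMM factors, filterByExpr, quasi-likelihood fit with 15 libraries in 3 groups, 12 residual degrees of freedom), with Benjamini-Hochberg adjustment over 17404 genes, and a gene was called at an adjusted p below 0.05. The common biological coefficient of variation was 30.2%. Standard errors were computed as the absolute log2 fold change over the root of F. CPM use TMM-scaled library sizes. No pair of libraries agreed within the bound set for copies of 1 library, a median chi-square of 0.50 after scaling for reads counted in pairs. All 15 were kept. The nearest pairs were NL-shGFP-3 with NL-shGFP-4, at 0.85, and NL-shGFP-1 with NL-shGFP-2, at 1.38. The other NL-shGFP pairs were at 2.13 to 6.94. The nearest pairs are those summed in the alternative fit. If they are not separate samples, the fits with 5 NL-shGFP libraries overstate the evidence, and this was not settled. Alternatives were DESeq2 1.42.0, limma 3.58.1 (voom, and log2 FPKM plus 1 or 0.1), other factors and filters, a replicate block and left-out libraries. Replicate numbers did not pair samples (3 of 15 same-number pairs correlated over 0.1). Per-library values were given for 21 members named in the plan and for any other member among the 6 smallest adjusted p-values of a comparison; the rest are given by fold change or range. The members, classes and lists were chosen with earlier results of these data known. Some signalling genes are not reported here. Exon overlaps come from GENCODE vM21 and promoters and gene clusters (steps of at most 6 genes) from RefSeq GRCm38.p6, which may differ from the annotation behind the counts. Matplotlib 3.10.9 drew the figures.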

Additional observations from a re-analysis of the deposited data

Results flagged for a closer look

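Each member was checked within each group of 5, on CPM without a log. In 28 of 150 checks the highest or lowest library lay far enough from the next to pass Dixon's 95% limit of 0.71. The members share the same 15 libraries and moved together, so the checks are not independent and the count cannot be set against a chance rate. NL-shGFP-5 was the low library in 12 of the 28. In NL-shGFP-5, type II led genes stood at 28.8 CPM for Gbp2, 10.2 for Gbp3, 7.08 for Gbp4, 54.6 for Iigp1, 31.0 for Igtp, 95.2 for Irgm1, 47.1 for Irgm2, 6.26 for Tgtp1, 9.24 for Tgtp2 and 5.89 for Socs1. Bst2 at 31.0 CPM and Trim30a at 7.51 CPM were also low there. FL-shAlpl-1 was the high library in 8 checks, with 52.3 CPM for Cxcl9, 97.7 for Gbp2, 18.8 for Gbp5, 8.67 for Tgtp1, 6.38 for Socs1, 33.1 for Cxcl10, 4.05 for Cxcl11 and 2.30 for Ly6i.

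FL-shAlpl-4 was the low library for 4 members, with 40.9 CPM for Eif2ak2, 4.50 for Xaf1, 46.9 for Parp14 and 5.77 for Trim30a. FL-shAlpl-5 was low for Oasl1, at 11.5 CPM. FL-shGFP-1 was the high library for Irf8, at 129 CPM, and for Tgtp1, at 14.9 CPM. NL-shGFP-2 was the high library for Ifitm3, at 73.7 CPM.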

How the results depend on the processing

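No called member changed direction under any of the alternatives, and of 3600 gene values compared 3267 kept their side of the threshold, 224 lost the call and 109 gained it; a direction was read for called values alone. In FL-shGFP over NL-shGFP the 1 member higher became 2 with RLE factors, library totals alone, 1 CPM in 5 samples, DESeq2 and both FPKM fits. It became 0 with no low-count filter, limma voom, only the 2 groups compared, NL-shGFP libraries summed in close pairs, and without NL-shGFP-5 and FL-shAlpl-1. The 20 lower became 13 with no filter and 11 with the summed pairs. In FL-shAlpl over FL-shGFP the 2 higher became 1 with no filter, voom, both FPKM fits, only the 2 groups, summed pairs and without the 2 libraries. The 3 lower became 9 with DESeq2, 9 without the 2 libraries and 5 with the replicate block. In FL-shAlpl over NL-shGFP the 25 lower became 10 with no filter and 7 with summed pairs. Leaving out 1 library gave 0 to 2 higher and 14 to 22 lower in FL-shGFP over NL-shGFP, 1 to 3 and 2 to 14 in FL-shAlpl over FL-shGFP, and 0 to 0 and 10 to 35 in FL-shAlpl over NL-shGFP. With the replicate block, 23, 8 and 23 members were called in FL-shGFP over NL-shGFP, FL-shAlpl over FL-shGFP and FL-shAlpl over NL-shGFP; replicate numbers do not pair these samples, and 5 of 15 libraries correlated best with their own number.

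Library totals alone moved the median of all genes to 0.19 in FL-shAlpl over NL-shGFP (0.05 with TMM), with 2783 genes higher and 930 lower against 1621 and 1414, and in FL-shGFP over NL-shGFP gave 4521 and 2347 against 4376 and 3752. Counting every library separately is the fit reported. With the summed pairs NL-shGFP has 3 samples, and with no filter 31859 genes are adjusted for; the cause of the other moves was not tested. Ifnb1, Ifnl2 and Ifnk had too few counts to be tested at this depth.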
